A study of Mus musculus with 14 samples.

Results

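The genes described here are 10 members of the Bcl2 family, which decides whether a cell survives or enters mitochondrial apoptosis: Bcl2, Bcl2l1, Mcl1, Bax, Bak1, Bik, Bid, Bad, Bcl2l11 and Pmaip1. They were chosen by name, and every probe set whose annotation names one of them alone was used. That gave 25 of the 18264 probe sets on the array, for 9 of the 10 genes; Bax is not analysed here. Expression was measured in 14 thymic lymphomas of mice, labelled as biological replicates, with 1 array per tumour, to look for differences between Hif1a genotypes that could bear on tumour onset and incidence.

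All mice carried p53R270H/R270H, a missense change on both p53 alleles, on a mixed C57BL/6-129/SvEvTac background. The groups held 5 tumours of HIF1a+/+ mice, 5 of HIF1a+/- mice and 4 of HIF1aKI/+ mice, written below as Hif1a+/+, Hif1a+/- and Hif1aKI/+. What the KI allele carries is not stated in the labels, nor are age, sex and batch. Tumours were taken when the mice showed respiratory distress, so each is a bulk piece of end-stage tissue, in which fewer cells of a type and less RNA per cell cannot be told apart.

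Cells commit to mitochondrial apoptosis when Bax and Bak1 permeabilise the outer mitochondrial membrane. Bcl2, Bcl2l1 (Bcl-xL) and Mcl1 hold them in check, and the BH3-only proteins Bid, Bik, Bad, Bcl2l11 (Bim) and Pmaip1 (Noxa) act upstream by engaging the survival proteins or by activating Bax and Bak1. In the thymus, Bcl2 is known to be low and Bcl2l1 high at the double-positive stage, Mcl1 is needed throughout, and Bcl2l11 drives the death of self-reactive thymocytes. Bax and Pmaip1 are textbook p53 target genes.

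Values are log2 probe set summaries, and a difference of 1 is a 2-fold change. Probe sets with no signal above background form a low mode that ends at 4.84, and 30.1% of genes have a mean below it. A difference measured from below that boundary has an uncertain size. Levels of different probe sets cannot be set against each other, so each gene is compared only with itself across tumours. The probe set of highest mean stands for a gene in the fit over 10254 genes, and the other probe sets of a member were read from a fit of all 16602 single-gene probe sets. All adjusted p-values are from limma with Benjamini-Hochberg adjustment over all genes tested, with a threshold of 0.05, and a difference that misses it is not shown to be absent.

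The tissue label was checked against 10 measured genes of T cell identity, all with a mean over the 14 tumours above the boundary. Some single values were far lower, such as Cd5 at 4.37 in a Hif1a+/- tumour, below the boundary, and Cd2 at 7.92 in a Hif1aKI/+ tumour. The mean level of the 10 genes lay between 11.54 and 12.31 in the 14 tumours. Hif1a itself averaged 12.68 ± 0.26 (SD, n = 5) for Hif1a+/+, 12.55 ± 0.22 (SD, n = 5) for Hif1a+/- and 12.02 ± 0.22 (SD, n = 4) for Hif1aKI/+ tumours. Every Hif1aKI/+ tumour lay below every Hif1a+/+ tumour, and neither altered genotype passed (limma adjusted p = 0.857 and 0.984). Whether its probes lie in an altered part of the gene is not stated, so this does not check the labels. Array medians ran from 7.91 to 8.03.

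No member differed between genotypes past the threshold. Of 27 differences (9 genes in 3 comparisons) 0 had a limma adjusted p under 0.05, the lowest being 0.514, and 3 had an unadjusted p under 0.05. These were Bcl2l1 in both altered genotypes against Hif1a+/+ and Bik between the altered genotypes. At the adjusted threshold limma called 0.0195% of all genes between Hif1a+/- and Hif1a+/+, 0% between Hif1aKI/+ and Hif1a+/+ and 0% between Hif1a+/- and Hif1aKI/+. At an unadjusted p under 0.05 the shares of all genes were 7.94%, 4.35% and 3.06%, against 1 of 9 members in each comparison. The F test over the 3 genotypes gave Bcl2l1 a p of 0.0232 and Bik 0.0185 (limma adjusted p = 0.893 for both), beside 5.43% of all genes under 0.05 and 0% after adjustment. In direction alone, 5, 4 and 5 of the 9 members were higher in the first-named genotype, against 46.2%, 47.7% and 46.9% of all genes, and the members' median differences were 0.035, -0.00057 and 0.014. No member separated either altered genotype from Hif1a+/+ without overlap. Of all genes 0.731% lay wholly higher and 0.741% wholly lower in Hif1a+/-, and 0.878% each way in Hif1aKI/+ tumours. The comparisons of Hif1a+/- and Hif1aKI/+ with Hif1a+/+ share the same 5 Hif1a+/+ tumours.

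**Figure D1:**
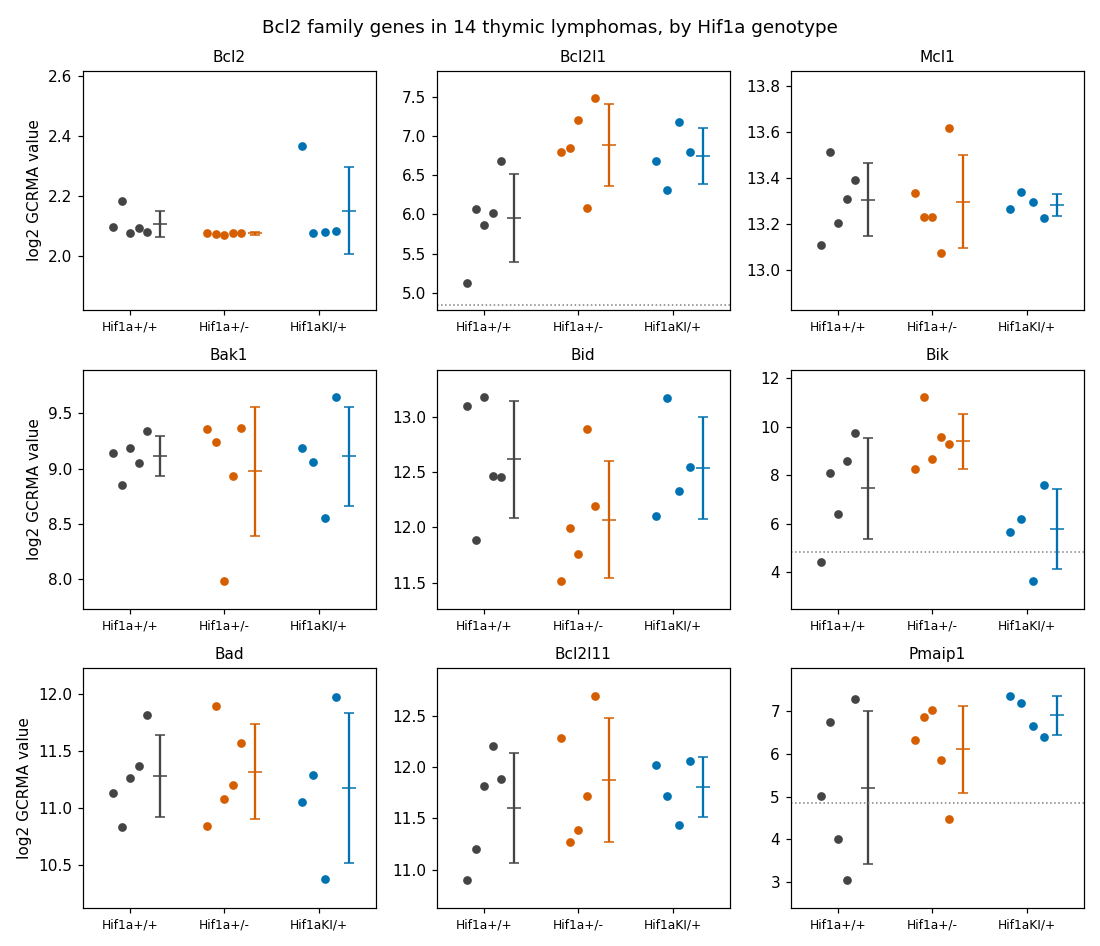
Log2 GCRMA value of 9 Bcl2 family genes at the probe set of highest mean, 1 panel per gene with its own vertical axis and 1 point per tumour, ordered by tumour number within a genotype. The bar beside each group is the mean ± SD, and the dotted line is the low-mode boundary of 4.84. Bik separates the Hif1a+/- tumours (8.26 and above) from the Hif1aKI/+ tumours (7.60 and below), and Bcl2 lies near 2 in every tumour.

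Of the survival genes, Bcl2l1 had the widest differences between genotypes, none past the threshold. Its only start-site window holding a hypoxia response core is shown first, since the comparison is between genotypes of a hypoxia-regulated factor. RefSeq start sites gave windows for 8 of the 10 members, Bik and Pmaip1 not among them. Each window was the 250 bases before a start site on GRCm38.p6, and it was searched on both strands for ACGTG and GCGTG, the forms of the HIF-binding core. Bcl2l1, on the minus strand of chromosome 2, has 3 start sites in that table. The window of 1 of them, chr2:152831729-152831978, holds 1 match, GCGTG read on the opposite strand, 86 bases before the start and set in capitals:

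Bcl2l1: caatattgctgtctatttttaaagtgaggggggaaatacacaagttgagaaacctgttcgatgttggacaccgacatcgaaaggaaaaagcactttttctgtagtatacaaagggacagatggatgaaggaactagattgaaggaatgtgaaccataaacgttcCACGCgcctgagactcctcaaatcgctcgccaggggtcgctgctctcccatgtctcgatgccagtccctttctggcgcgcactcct

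A match to either form is common, with 38.6% of 32817 windows of the same length holding at least 1. Among the 8 members, 4 had a match in some window: Bcl2l1 and, not printed, Bax (ACGTG), Bad and Bcl2l11 (GCGTG each). That is a count of genes, some with several windows, so it cannot be set directly against the share of windows. The windows of Bcl2, Mcl1, Bak1 and Bid held neither string.

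Bcl2l1 encodes Bcl-xL, the survival protein of double-positive thymocytes. In Hif1a+/+ tumours 1 to 5 its level was 5.13, 6.07, 5.86, 6.02 and 6.69. Hif1a+/- tumours 1 to 5 read 6.80, 6.85, 7.20, 6.09 and 7.48, and Hif1aKI/+ tumours 1, 3, 4 and 5 read 6.68, 6.31, 7.18 and 6.79. The Hif1a+/- tumours other than tumour 4 thus lay above the highest Hif1a+/+ tumour, and Hif1aKI/+ tumours overlapped the top of the Hif1a+/+ range. The log2 difference between Hif1a+/- and Hif1a+/+ was 0.93 (SE 0.31, 95% interval 0.26 to 1.60), 1.90-fold, with an unadjusted p of 0.0104 and a limma adjusted p of 0.514. Between Hif1aKI/+ and Hif1a+/+ it was 0.79 (SE 0.32, 95% interval 0.08 to 1.49), 1.73-fold, with an unadjusted p of 0.0319 and a limma adjusted p of 0.984. Hif1a+/- and Hif1aKI/+ differed by 0.14 (95% interval -0.57 to 0.85).

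The other 2 Bcl2l1 probe sets had larger differences on signals that began at background. At 1426191_a_at the mean was 4.61 ± 1.55 (SD, n = 5) for Hif1a+/+, 6.78 ± 1.37 (SD, n = 5) for Hif1a+/- and 6.82 ± 0.56 (SD, n = 4) for Hif1aKI/+ tumours. Hif1a+/+ tumours 1, 2 and 3 were below the boundary there, tumour 1 lowest at 2.24. The difference from Hif1a+/+ was 2.17 (SE 0.79, limma adjusted p = 0.586) for Hif1a+/- and 2.20 (SE 0.83, limma adjusted p = 1.0) for Hif1aKI/+. At 1420887_a_at only Hif1a+/- tumour 5, at 6.27, exceeded the boundary, so its differences of 1.55 and 1.0 are both measured from background. With the mean of the 3 probe sets the Bcl2l1 difference was 1.55 in Hif1a+/- and 1.33 in Hif1aKI/+ tumours, over 1.5 times that of the first probe set, and passed in neither (limma adjusted p = 0.582 and 0.985).

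**Figure D2:**
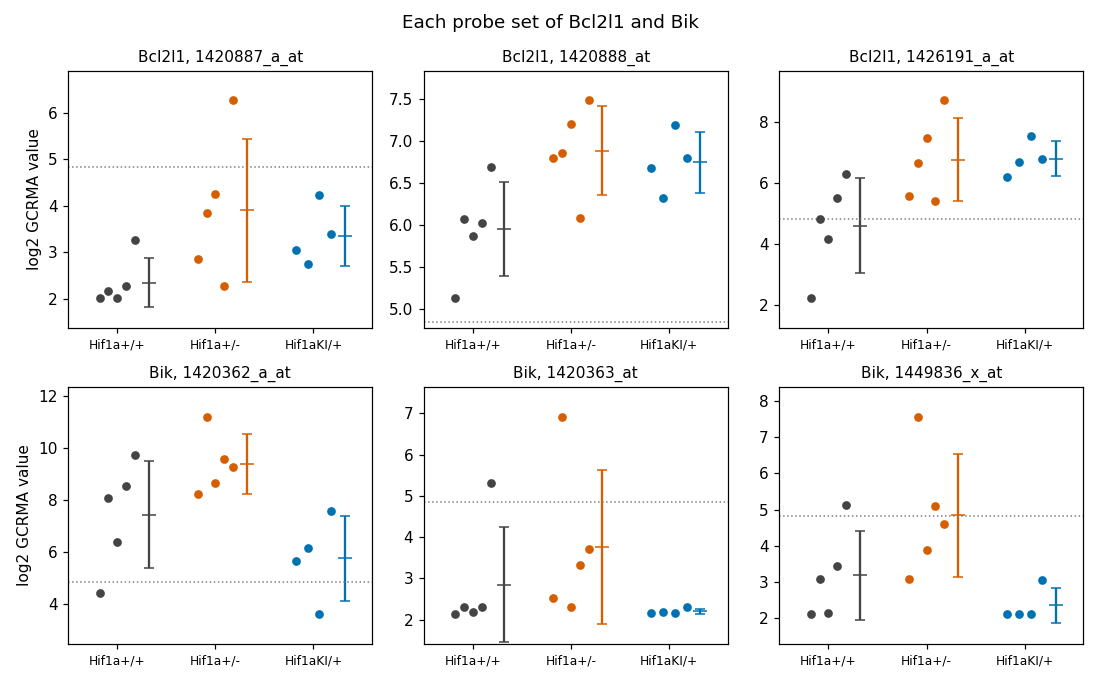
Log2 GCRMA value at each of the 3 probe sets of Bcl2l1 (top) and of Bik (bottom), 1 point per tumour, with the mean ± SD beside each group and the low-mode boundary of 4.84 as a dotted line. At all 3 Bcl2l1 probe sets the Hif1a+/+ mean is the lowest. At all 3 Bik probe sets every Hif1a+/- tumour is above every Hif1aKI/+ tumour, by a margin as small as 2.32 against 2.30 at 1420363_at, both below the boundary.

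Bcl2l1 was set beside markers of thymocyte stage, which the tumours held to different extents. Over the 14 tumours it correlated with the mean of 9 double-positive markers (such as Cd4, Cd8a and Rag1) at Pearson r = 0.77 (permutation p = 0.0013) and Spearman rho = 0.66 (permutation p = 0.0121). With the mean of 10 double-negative markers it correlated at Pearson r = -0.76 (permutation p = 0.00139) and Spearman rho = -0.82 (permutation p = 0.00079). These markers were Il2ra, Ptcra, Kit, Cd44, Dtx1, Hes1, Notch1, Notch3, Hhex and Lyl1. Il2ra (mean 4.65, below the boundary) ran from 2.14 to 11.42 in Hif1a+/+ tumours, and Dtx1 from 1.90 to 11.27 in Hif1a+/- tumours. Genes of so wide a range weigh most in the list mean, and which of them carry the relation was not tested. Adjusted over the 108 pairs of a member and a marker list, both Pearson values had a p of 0.05004, just outside the threshold, and the Spearman values 0.217 and 0.0853. Without the 2 tumours of most extreme Bcl2l1 level, Hif1a+/+ tumours 1 and 3, r was 0.71 and -0.68. Within genotypes, with each group's mean removed, r was 0.71 for the double-positive list (permutation p = 0.00499) and -0.53 for the double-negative list (permutation p = 0.0520).

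Both marker lists had different means in the groups in which Bcl2l1 did, with no marker of either list called. The double-negative mean ran from 7.31 to 8.55 in Hif1a+/+, 5.20 to 7.30 in Hif1a+/- and 6.75 to 7.11 in Hif1aKI/+ tumours, with 8 of 10 markers lower in Hif1a+/-, 9 of 10 lower in Hif1aKI/+ and 4 of the 10 having a mean below the boundary. All 9 double-positive markers had higher means in both altered genotypes, their list mean running from 10.76 to 12.27 in Hif1a+/+, 11.44 to 12.39 in Hif1a+/- and 11.72 to 12.37 in Hif1aKI/+ tumours. Bcl2l1 correlated too with the cell cycle list (Pearson r = -0.68, permutation p = 0.0096, Spearman rho = -0.71, permutation p = 0.00537; r = -0.66 without the same 2 tumours, -0.63 within genotypes) and with fibroblast markers. For the latter Pearson r was -0.61 (permutation p = 0.0195) and Spearman rho -0.74 (permutation p = 0.0034), with r = -0.56 without those tumours and -0.15 within genotypes. The Pearson values for these 2 lists had adjusted permutation p of 0.259 and 0.300 over the 108 pairs. With macrophage markers Pearson r was -0.50 (permutation p = 0.0681) and Spearman rho -0.62 (permutation p = 0.0205, adjusted 0.316). There r was -0.70 without the same 2 tumours and -0.15 within genotypes. Endothelial markers had r = 0.13 over all tumours and 0.57 within genotypes (permutation p = 0.0344, adjusted 0.325). The part of thymocyte stage and stroma in the Bcl2l1 difference was not tested.

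**Figure D3:**
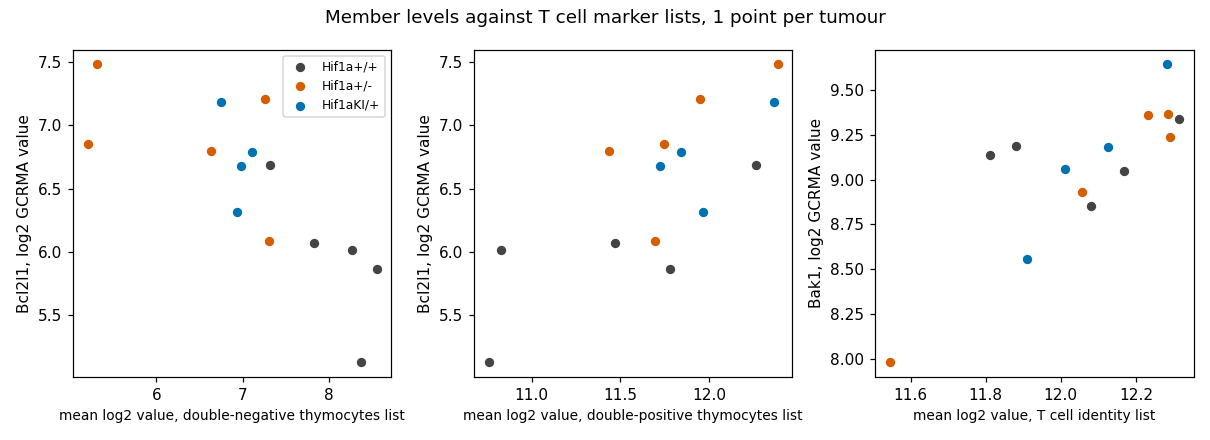
Level of Bcl2l1 against the mean log2 value of the double-negative and double-positive thymocyte lists, and level of Bak1 against that of the T cell identity list, 1 point per tumour coloured by Hif1a genotype. Bcl2l1 is lower where double-negative markers are higher (r = -0.76) and higher where double-positive markers are higher (r = 0.77). Bak1 is higher where the mean of the T cell identity list is higher (r = 0.81), with Hif1a+/- tumour 3 lowest on both axes.

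Mcl1, the short-lived survival protein that restrains Bak1 and Bcl2l11, had the smallest spread of the members with signal at the probe set that stands for it. Its level there ran from 13.07 to 13.62 over the 14 tumours, a 1.46-fold range, and its spread within genotypes (SD 0.16) was exceeded by most genes above the boundary, of which 3.99% had a smaller one. The genotype means were 13.30 in Hif1a+/+, 13.30 in Hif1a+/- and 13.28 in Hif1aKI/+ tumours. The difference was -0.0082 (95% interval -0.22 to 0.21) for Hif1a+/- and -0.022 (95% interval -0.25 to 0.21) for Hif1aKI/+ against Hif1a+/+. Quantile normalization and the mean of the probe sets turned the sign of the first, and array weights that of the second. The differences at the other 5 Mcl1 probe sets ran from -0.18 to 0.35 in Hif1a+/- and from -0.25 to -0.015 in Hif1aKI/+ tumours, and none passed. At 1416881_at the level varied more, from 9.28 to 10.91 over the tumours, with group SDs of 0.46, 0.41 and 0.38 beside a median within-genotype SD of 0.46 for genes above the boundary, so the small spread does not hold at every Mcl1 probe set. The widest of these differences was 1416881_at in Hif1a+/- against Hif1aKI/+ tumours, at 0.51 (SE 0.27, limma adjusted p = 1.0). Mcl1 correlated with the cell cycle list at Pearson r = -0.65 (permutation p = 0.0168, adjusted 0.300) and Spearman rho = -0.46 (permutation p = 0.10). Without Hif1a+/- tumour 5 and Hif1a+/+ tumour 2 the value was -0.27, so it rests on those tumours; within genotypes it was -0.74.

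Bcl2, the founding survival gene, gave no signal above background at its 1 single-gene probe set. All 14 tumours read between 2.07 and 2.37. This is a statement about that probe set and does not show that the transcript was absent. Its highest value, 2.37, was in Hif1aKI/+ tumour 1, and the remaining tumours stayed at or below 2.18. Differences between genotypes from -0.076 to 0.045 carry no information on its level.

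Of the effectors, Bak1 was measured well at 1 of its 2 probe sets; the second, 1425716_s_at, read 2.0 in every tumour. In Hif1a+/+ tumours 1 to 5 Bak1 read 9.14, 8.85, 9.19, 9.05 and 9.34. Hif1a+/- tumours read 9.36, 9.24, 7.98, 8.93 and 9.37, and Hif1aKI/+ tumours 1, 3, 4 and 5 read 9.18, 9.06, 8.56 and 9.64. The groups overlapped, with Hif1a+/- tumour 3 and Hif1aKI/+ tumour 4 the 2 lowest of all. Bak1 differed by -0.14 (SE 0.27, limma adjusted p = 0.956) between Hif1a+/- and Hif1a+/+ and by -0.00057 (SE 0.28, limma adjusted p = 1.0) between Hif1aKI/+ and Hif1a+/+. Its level correlated with T cell identity over the 14 tumours, at Pearson r = 0.81 (permutation p = 0.00090, adjusted 0.05004 over 108 pairs) and Spearman rho = 0.71 (permutation p = 0.00656). The value was 0.83 within genotypes (permutation p = 0.00051) and 0.54 without the 2 lowest tumours (permutation p = 0.0708), so part of it rests on them. The relation is with the list mean, in which genes of wide range weigh most. In Hif1a+/- tumours Cd5 ran from 4.37 to 9.86 and Cd2 from 9.34 to 12.02. Cd3d ran only from 13.90 to 14.13 there and Thy1 from 14.01 to 14.21. Which of the T cell identity genes carry this relation was not tested.

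Bik encodes a BH3-only protein of the endoplasmic reticulum. It had the widest range of the members, from 3.61 to 11.22 over the tumours, the lower end being below the boundary, and 95.3% of genes above the boundary had a smaller spread within genotypes. Hif1a+/+ tumours 1 to 5 read 4.43, 8.09, 6.40, 8.57 and 9.76. Hif1a+/- tumours read 8.26, 11.22, 8.65, 9.57 and 9.30, whereas Hif1aKI/+ tumours 1, 3, 4 and 5 read 5.67, 6.17, 3.61 and 7.60. Every Hif1a+/- tumour lay above every Hif1aKI/+ tumour, and the Hif1a+/+ tumours spanned both ranges. Hif1a+/- exceeded Hif1aKI/+ by 3.64 (SE 1.08, 95% interval 1.27 to 6.00), 12.4-fold, with an unadjusted p of 0.00583, the 28th smallest of 10254, and a limma adjusted p of 1.0. The bottom of that difference is near background, since Hif1aKI/+ tumour 4 is below the boundary. Of all genes, 0.234% had every Hif1a+/- tumour above every Hif1aKI/+ tumour and 0.439% every one below, against 1 and 0 of 9 members.

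Against Hif1a+/+ the Bik differences had opposite signs, at 1.95 (SE 1.02, 95% interval -0.28 to 4.18, limma adjusted p = 0.655) for Hif1a+/- and -1.69 (SE 1.08, 95% interval -4.05 to 0.68, limma adjusted p = 0.984) for Hif1aKI/+. The first was 1.20 without Hif1a+/+ tumour 1, and the second -0.97 without Hif1aKI/+ tumour 4 and -1.11 without Hif1a+/+ tumour 5. The altered genotypes did not overlap at the other 2 probe sets either, which measure the same RNA in the same tumours, but mostly within background. At 1449836_x_at Hif1a+/- tumours read 3.09, 7.57, 3.90, 5.10 and 4.60, and Hif1aKI/+ tumours 2.12, 2.12, 2.13 and 3.06, a difference of 2.50 (SE 0.84, unadjusted p = 0.0117, limma adjusted p = 1.0). At 1420363_at the difference was 1.56 (SE 0.91, unadjusted p = 0.112, limma adjusted p = 1.0). All Hif1aKI/+ values at both of these lay below the boundary. So did the Hif1a+/- values at 1420363_at except tumour 2 (6.92), and at 1449836_x_at except tumours 2 and 4. The nearest values were 2.32 against 2.30 and 3.09 against 3.06, all in the low mode. These 2 probe sets thus add little to the separation, and their sizes are uncertain. Hif1a+/- tumour 2 was the highest at all 3 probe sets. Among the 12 marker lists, Bik was closest to T cell identity, at Pearson r = 0.48 (permutation p = 0.0831, adjusted 0.734) and Spearman rho = 0.59 (permutation p = 0.0309, adjusted 0.324). The value was 0.67 within genotypes (permutation p = 0.00864, adjusted 0.155) and 0.31 without Hif1aKI/+ tumour 4 and Hif1a+/+ tumour 1.

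Pmaip1, which encodes Noxa, an Mcl1 antagonist and p53 target, varied most among Hif1a+/+ tumours. It read 5.01, 6.74, 4.00, 3.05 and 7.27 in Hif1a+/+ tumours 1 to 5, 6.32, 6.85, 7.02, 5.86 and 4.47 in Hif1a+/- tumours, and 7.35, 7.19, 6.65 and 6.40 in Hif1aKI/+ tumours 1, 3, 4 and 5. The Hif1aKI/+ tumours had the smallest spread and the highest mean, 6.90 ± 0.45 (SD, n = 4), but Hif1a+/+ tumour 5 lay above 3 of them, and 2 of 5 Hif1a+/+ tumours and 1 of 5 Hif1a+/- tumours were below the boundary. Hif1aKI/+ exceeded Hif1a+/+ by 1.69 (SE 0.82, 95% interval -0.11 to 3.48, unadjusted p = 0.0628, limma adjusted p = 0.984). The value for Hif1a+/- was 0.89 (SE 0.77, limma adjusted p = 0.785), ranging from 0.35 without Hif1a+/+ tumour 4 and 0.59 without tumour 3 to 1.41 without tumour 5. With array weights these became 2.24 and 1.61, the second over 1.5 times its main value. Pmaip1 correlated with thymic epithelial markers at Pearson r = 0.62 (permutation p = 0.0174, adjusted 0.300) and Spearman rho = 0.58 (permutation p = 0.0333). Without Hif1a+/+ tumours 3 and 4, the lowest in Pmaip1, r was 0.019, so the relation rests on them; within genotypes it was 0.45. With macrophage markers it had r = 0.27 over all tumours (permutation p = 0.341, rho = 0.33, permutation p = 0.244) and 0.73 within genotypes (permutation p = 0.00315, adjusted 0.135). Other lists had values of similar standing. Spearman rho was 0.56 with B cell markers (permutation p = 0.0389) and 0.56 with neutrophil markers (permutation p = 0.0377), adjusted 0.324 for each. Most markers of those 2 lists had a mean below the boundary. With fibroblast markers r within genotypes was 0.54 (permutation p = 0.0492, adjusted 0.375). The epithelial mean ran from 3.51 to 7.55 in Hif1a+/+, 5.58 to 7.83 in Hif1a+/- and 6.82 to 8.02 in Hif1aKI/+ tumours.

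Bid, which links death receptors to mitochondria once cleaved by caspase-8, ran lowest in Hif1a+/- tumours. Its level was 12.62 ± 0.53 (SD, n = 5) for Hif1a+/+, 12.07 ± 0.53 (SD, n = 5) for Hif1a+/- and 12.54 ± 0.46 (SD, n = 4) for Hif1aKI/+ tumours. By tumour it read 13.09, 11.89, 13.18, 12.47 and 12.45 in Hif1a+/+, 11.51, 12.00, 11.76, 12.89 and 12.20 in Hif1a+/-, and 12.10, 13.17, 12.33 and 12.55 in Hif1aKI/+. The groups overlapped, Hif1a+/- tumour 4 lying above 3 of the Hif1a+/+ tumours. Hif1a+/- differed from Hif1a+/+ by -0.55 (SE 0.31, 95% interval -1.23 to 0.14, limma adjusted p = 0.686) and Hif1aKI/+ by -0.079 (SE 0.33, limma adjusted p = 1.0). The second probe set, 1448560_at, had all 3 group means below the boundary and differed by -1.10 in Hif1a+/- tumours (SE 0.55, limma adjusted p = 0.689). Bid correlated with mature thymocyte markers at Pearson r = -0.58 (permutation p = 0.0339, adjusted 0.450) and Spearman rho = -0.58 (permutation p = 0.0324), at -0.57 within genotypes and -0.42 without Hif1a+/- tumour 1 and Hif1a+/+ tumour 3.

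Bad, a BH3-only protein silenced by growth factor signalling, and Bcl2l11, the Bim gene, had overlapping ranges in the 3 genotypes. Bad ranged from 10.84 to 11.82 in Hif1a+/+, 10.84 to 11.89 in Hif1a+/- and 10.38 to 11.97 in Hif1aKI/+ tumours, and its differences from Hif1a+/+ were 0.035 (95% interval -0.60 to 0.67) and -0.11 (95% interval -0.79 to 0.57). Hif1aKI/+ tumour 4 was lowest for Bad at both probe sets. Bcl2l11 ranged from 10.90 to 12.20 in Hif1a+/+, 11.27 to 12.69 in Hif1a+/- and 11.44 to 12.05 in Hif1aKI/+ tumours, with differences of 0.27 (95% interval -0.41 to 0.95) and 0.21 (95% interval -0.52 to 0.93). Single tumours moved these values by large factors, the first to 0.064 without Hif1a+/- tumour 5 and 0.093 without Hif1a+/+ tumour 1, and the second to 0.031 without Hif1a+/+ tumour 1 (up to 0.42 and 0.36, both without Hif1a+/+ tumour 4). Of its other 4 probe sets, 1456005_a_at and 1456006_at were above the boundary on average and had the opposite sign, at -0.25 and -0.43 in Hif1a+/- and -0.19 and -0.27 in Hif1aKI/+ tumours. Hif1a+/- tumour 2 read 4.03 at 1456006_at, where the next lowest Hif1a+/- tumour was 6.77. None of these differences passed, so the probe sets give no settled direction for Bcl2l11. With T cell identity Bad had Pearson r = 0.54 (permutation p = 0.0479, adjusted 0.517) and Spearman rho = 0.59 (permutation p = 0.0306), at 0.55 within genotypes and 0.47 without Hif1aKI/+ tumours 4 and 5. For Bcl2l11 the values were Pearson r = 0.56 (permutation p = 0.0375, adjusted 0.450) and Spearman rho = 0.53 (permutation p = 0.0527), at 0.56 within genotypes and 0.41 without Hif1a+/- tumour 5 and Hif1a+/+ tumour 1. Within genotypes Bcl2l11 was closer to thymic epithelial markers, at r = -0.68 (permutation p = 0.00717, adjusted 0.155), against -0.35 over all tumours. With endothelial markers r was 0.58 within genotypes (permutation p = 0.0315, adjusted 0.325) and 0.43 over all tumours.

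**Figure D4:**
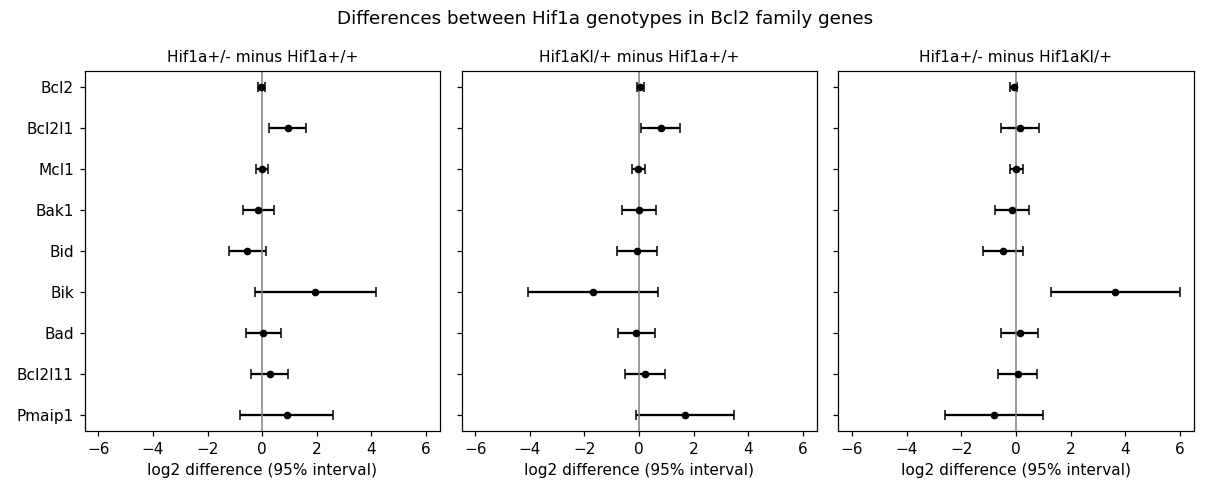
Log2 difference of each of 9 Bcl2 family genes in the 3 genotype comparisons, as points with 95% intervals from the limma fit over all genes. Bcl2l1 lies above 0 in both comparisons with Hif1a+/+ (0.93 and 0.79), Bik lies above 0 between Hif1a+/- and Hif1aKI/+ (3.64), and every other interval includes 0; none of the 27 differences passed after adjustment.

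Correlations between the members did not pass after adjustment. Of 36 pairs of the 9 genes, 0 passed in their correlation over the 14 tumours (lowest adjusted permutation p = 0.370) and 3 had an unadjusted permutation p under 0.05. Bcl2l1 and Bid had a negative value (Pearson r = -0.62, permutation p = 0.0188, Spearman rho = -0.61, permutation p = 0.0234), at -0.58 within genotypes and -0.40 without Hif1a+/+ tumours 1 and 3, so part of that relation rests on them. Bad ran with Bak1 (Pearson r = 0.58, permutation p = 0.0315, Spearman rho = 0.62, permutation p = 0.0212), at 0.61 both within genotypes and without the 2 tumours lowest in Bak1. Bad also ran with Bik (Pearson r = 0.61, permutation p = 0.0205, Spearman rho = 0.52, permutation p = 0.0603), at 0.74 within genotypes (permutation p = 0.00265, adjusted 0.0954) and 0.43 without Hif1aKI/+ tumour 4 and Hif1a+/+ tumour 1, the lowest in Bik. Bcl2l1 and Mcl1 had r = 0.46 over all tumours and 0.68 within genotypes (permutation p = 0.00767, adjusted 0.138). For Bak1 and Bcl2l11, Spearman rho was 0.60 (permutation p = 0.0252, adjusted 0.303) and r within genotypes 0.53 (permutation p = 0.0484, adjusted 0.348).

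The genes most like each member in pattern were sought among 7168 genes above the boundary by Pearson r over the 14 tumours, which describes these arrays only. For Bcl2l1 they were Trpc4ap (0.91) and Mettl3 (0.90), for Mcl1 Psap (0.89) and Vsir (0.84), and for Bak1 Fkbp2 (0.76) and Acsf3 (0.75). Bik was most like Hint3 (0.89) and Uxt (0.79), and Pmaip1 most like Lgals3 (0.88) and Ifitm3 (0.87), a macrophage-associated lectin gene and an interferon-induced gene. For Bid they were Chmp3 (0.88) and Pno1 (0.87), for Bad Cby1 (0.85) and Eif4e2 (0.84), and for Bcl2l11 Srebf2 (0.90) and Zfp319 (0.88). The values for Bcl2, Ebi3 (0.79) and Arhgap35 (0.78), rest on differences within background.

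The rest of the pathway showed no called gene either. Of 75 listed apoptosis and p53 pathway genes 55 were measured, 11 of them with a mean below the boundary, and 0 passed in any of the 3 comparisons. At an unadjusted p under 0.05, 2 were higher and 3 lower in Hif1a+/- than in Hif1a+/+ tumours, 0 higher and 2 lower in Hif1aKI/+ than in Hif1a+/+, and 3 higher and 0 lower in Hif1a+/- than in Hif1aKI/+. These are 9.09%, 3.64% and 5.45% of the list, beside 7.94%, 4.35% and 3.06% of all genes. By direction, 4.3% of all genes were higher and 3.64% lower in the first comparison, 2.72% and 1.63% in the second, and 1.41% and 1.65% in the third. The list's median differences were 0.062, 0.0048 and 0.047, and those of all genes -0.0038, -0.0024 and -0.0012.

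Among further Bcl2 family and related genes, Bcl2l2 (Bcl-w) was the 1 of 7 other survival genes measured. Its Hif1a+/+ mean of 2.44 was at background, and Hif1aKI/+ lay at 4.40, also below the boundary (difference 1.96, SE 0.95, limma adjusted p = 0.984). All 6 measured genes of the pro-apoptotic list were lower in Hif1a+/- than in Hif1a+/+ tumours, with a median difference of -0.089. Of all genes 46.2% were higher in that comparison. In Hif1aKI/+ tumours 4 of the 6 were higher and 2 lower, with a median of 0.22, and 3 of the 6 had a mean below the boundary. The largest Hif1a+/- difference was Bcl2l14 at -1.57 (SE 0.58, limma adjusted p = 0.540), with both means below the boundary. Others lay near 0, with Bcl2l15 at -0.024, Mff at -0.034 and the mitophagy receptor and hypoxia-induced gene Bnip3 at -0.036. Bok, a Bax-like effector, was below the boundary in all 3 means. Bbc3, Bmf, Bnip3l and Bcl2a1b, further BH3-only, mitophagy and survival genes of the list, are not analysed here.

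Downstream of mitochondria, the 11 measured apoptosome and caspase genes included 5 higher and 6 lower in Hif1a+/- and 6 higher and 5 lower in Hif1aKI/+ than in Hif1a+/+ tumours. Apaf1, the scaffold of the apoptosome, differed by 0.41 (SE 0.28) in Hif1a+/- and 0.087 (SE 0.29) in Hif1aKI/+ tumours, and Casp9, the caspase it activates, by 0.25 (SE 0.28) and 0.044 (SE 0.29). The mitochondrial nuclease gene Endog differed by -0.69 (SE 0.35, limma adjusted p = 0.655) and -0.53 (SE 0.37, limma adjusted p = 0.984). Of 7 inhibitor of apoptosis genes, 2 of them below the boundary, 6 had higher means in each altered genotype, Xiap by 0.14 (SE 0.26) and 0.19 (SE 0.28), whereas Birc6 was lower in Hif1a+/- tumours by -0.32 (SE 0.15, limma adjusted p = 0.618).

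On the receptor side, Fas differed by 0.50 (SE 0.64) in Hif1a+/- and 0.29 (SE 0.68) in Hif1aKI/+ tumours. The adaptor gene Traf2 was at 5.52 in Hif1a+/- against 4.29 in Hif1a+/+ and 4.21 in Hif1aKI/+ tumours, the last 2 below the boundary (differences 1.23 and 1.31, limma adjusted p = 0.578 and 1.0). Tnfrsf10b was below the boundary in all 3 means. Huwe1, a ubiquitin ligase of Mcl1, differed by -0.70 (SE 0.28, limma adjusted p = 0.984) in Hif1aKI/+ and -0.34 (SE 0.27, limma adjusted p = 0.765) in Hif1a+/- tumours. Btrc, a ubiquitin ligase subunit, differed by 1.57 (SE 0.65, limma adjusted p = 1.0) between Hif1a+/- and Hif1aKI/+ tumours. Of 12 measured p53 pathway genes, Aen, a p53-induced nuclease gene, was lower by -0.56 (SE 0.24, limma adjusted p = 0.604) in Hif1a+/- and by -0.66 (SE 0.26, limma adjusted p = 0.984) in Hif1aKI/+ tumours. Every Hif1a+/- tumour was below every Hif1a+/+ tumour for Aen, but only just, at 11.35 against 11.36. Of all genes 0.741% lay wholly lower in that comparison. Mdm2 differed by 0.53 (SE 0.28, limma adjusted p = 1.0) between Hif1a+/- and Hif1aKI/+.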

How the data were processed

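Total RNA (100 ng per tumour) was amplified with T7 polymerase and biotin-labelled, per the labels' protocols. The authors deposited 1 log2 value per probe set and array. The submitters' processing notes name GCRMA and Partek, without versions; the annotation build is unstated in the labels, files and notes. Each member's probe sets, its values by tumour and its fit were read from these log2 values. GCRMA shrinks probe sets without signal to nearly constant low values, which makes their spread small. Probe sets naming several genes (603) or none (1059) were left out. Tumours were grouped by the genotype in their titles. In limma 3.58.1 (R 4.3.3, default eBayes) a 3-group model took in all 14 arrays, with two-sided tests and no filter on level. Alternatives were a level filter, quantile normalization, centring, trend and robust moderation, array weights, only the compared genotypes, other probe set rules, a replicate block and leaving out each tumour. The number of arrays limits the precision. The low-mode boundary is the minimum between the 2 modes of the density of gene means. Correlations were tested with 100000 permutations, two-sided. The fit and the correlation step were tested on simulated data. Promoter sequences are from RefSeq (GRCm38.p6). The members and lists were chosen with earlier results of these data known. Named genes are the members, fixed pathway genes, up to 2 genes of smallest unadjusted p per list and comparison, and the 2 genes most like each member.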

Additional observations from a re-analysis of the deposited data

Results flagged for a closer look

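Among 54 groups of 4 or 5 tumours tested (each member probe set in each genotype, leaving out those at background unless they stand for the gene), 2 held a tumour far from the others, where chance gives about 1 in 20. Both were at the Bcl2 probe set. Hif1aKI/+ tumour 1 read 2.37, with the next highest tumour of its group at 2.08, and Hif1a+/+ tumour 2 read 2.18, with the next at 2.10. All of these values lie in the low mode.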

How the results depend on the processing

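No member difference passed the threshold under any alternative. Mcl1, Bad, Bcl2l11, Bcl2 and Bak1 changed sign around 0 in some comparison. For Hif1a+/- against Hif1a+/+, Mcl1 was 0.012 with quantile normalization and 0.035 with the mean of its probe sets, Bad -0.0089 with centring and -0.010 with array weights, and Bcl2l11 -0.012 with the mean of its probe sets. For Hif1aKI/+ against Hif1a+/+, Bcl2 was -0.017 with centring and Bcl2l11 -0.069 with the mean of its probe sets, and array weights gave Mcl1 0.0016, Bak1 0.064 and Bad 0.0061. For Hif1a+/- against Hif1aKI/+, array weights gave Mcl1 -0.012, Bad -0.016 and Bcl2l11 -0.052, and the replicate block gave Mcl1 -0.0038. The causes were not tested.

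Leaving out 1 tumour at a time, ranges that crossed 0 for Hif1a+/- against Hif1a+/+ were -0.089 to 0.047 for Mcl1, -0.23 to 0.11 for Bak1 and -0.11 to 0.17 for Bad. For Hif1aKI/+ against Hif1a+/+ they were -0.027 to 0.070 for Bcl2, -0.072 to 0.030 for Mcl1, -0.18 to 0.18 for Bak1, -0.29 to 0.066 for Bid and -0.37 to 0.16 for Bad. For Hif1a+/- against Hif1aKI/+ they were -0.0077 to 0.34 for Bcl2l1, -0.066 to 0.070 for Mcl1, -0.32 to 0.11 for Bak1, -0.12 to 0.41 for Bad and -0.14 to 0.21 for Bcl2l11. Bcl2l1 against Hif1a+/+ kept its sign, at 0.72 to 1.13 and 0.58 to 0.97 (limma adjusted p over all alternatives 0.291 to 0.785 and 0.700 to 1.0), as did Bik between the altered genotypes, at 2.92 to 4.25 (0.866 to 1.0).

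Over all genes limma called 2 for Hif1a+/- against Hif1a+/+, neither a member. It called 1 with trend and robust moderation, and 0 with the filter on level, quantile normalization, centring, the compared genotypes only, probe sets singly or the replicate block (618 to 1254 genes at an unadjusted p under 0.05). Without 1 tumour it called 0 to 1, the 1 without Hif1a+/- tumour 1. The other counts were 0 and became 0 to 2 for Hif1aKI/+ against Hif1a+/+ (1 without Hif1aKI/+ tumour 3, 2 without tumour 5), 0 to 1 for Hif1a+/- against Hif1aKI/+ (1 without Hif1aKI/+ tumour 3 or Hif1a+/+ tumour 5) and 0 to 1 for the F test over the 3 genotypes (1 without Hif1a+/- tumour 1 or Hif1aKI/+ tumour 3). The count of member pairs past the threshold stayed 0 throughout. Same-numbered tumours of different genotypes did not pair (mean correlation of deviations -0.0060, over 0.1 in 1 of 13 pairs), so the replicate block, with 842 genes at an unadjusted p under 0.05 against 814 without it, is given only here. Signal over background limits Bcl2, 1 Bak1 probe set and the lower Bik and Bcl2l1 probe sets.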
